A study of Homo sapiens with 12 samples.

Results

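The 10 genes described here are transcripts that ERK signalling switches on and that in turn restrain or carry its output: the MAPK phosphatases DUSP4, DUSP5 and DUSP6, the Sprouty genes SPRY2 and SPRY4, the SPRED genes SPRED1 and SPRED2, the ETS transcription factors ETV4 and ETV5, and PHLDA1. They were chosen by name as known genes of the pathway, with earlier results of these data already known, and all 10 were found among the 61806 genes of the deposited table and passed the filter on low counts with 17447 genes in all. RNA was sequenced in 2 established lines of papillary thyroid cancer, named K1 and TPC-1, harvested 24 h after transfection. The groups were K1 with TRIM35 siRNA, K1 with negative control siRNA, TPC-1 with TRIM35 siRNA and TPC-1 with negative control siRNA, with 3 libraries each. TRIM35 belongs to the tripartite motif family, whose members act as ubiquitin ligases, and the study's title names proliferation, metastasis and glycolysis as its subjects. The labels give the genotype of all 4 groups as WT. As background from outside the labels, K1 is known to carry an activating BRAF mutation and TPC-1 a CCDC6-RET fusion, both of which feed into ERK. Each line is a single line, so that K1 against TPC-1 compares these lines and no wider class of tumour. Any batch that differed between the lines cannot be told apart from the line itself.

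In the MAPK pathway a receptor tyrosine kinase loads RAS with GTP, RAS recruits RAF, RAF phosphorylates MEK, and MEK phosphorylates ERK. ERK then drives transcription of its own brakes: DUSP proteins take the phosphates off MAP kinases, while Sprouty and SPRED proteins act higher up, between the receptor, RAS and RAF. ETV4 and ETV5 belong to the PEA3 group of ETS factors, which ERK signalling raises and which activate further target genes. Because these transcripts follow ERK activity, several of them are used as a readout of the pathway, including in thyroid cancers driven by RET or BRAF. No ERK activity or protein was measured here, and the values below are mRNA levels only.

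Library totals ran from 16705044 to 22928861 counts. TRIM35 measured 1.20, 1.49 and 1.53 FPKM in K1 siRNA libraries against 1.51, 1.85 and 1.47 FPKM in K1 control libraries, and 2.34, 2.56 and 2.58 FPKM in TPC-1 siRNA libraries against 2.86, 2.91 and 3.06 FPKM in TPC-1 control libraries. FPKM, as deposited by the authors, is the count scaled by exonic gene length and by the library's total. The fitted TRIM35 level was 87.9% of control in K1 (95% interval 68.5% to 113%) and 84.8% of control in TPC-1 (95% interval 66.8% to 107.5%). Neither was called by the edgeR quasi-likelihood test (adjusted p = 1 in both), so the targeted mRNA gives only a weak check of the knockdown. Of the thyroid markers, PAX8 averaged 115 ± 6.71 FPKM in K1 control libraries and 19.6 ± 0.122 FPKM in TPC-1 control libraries (SD, n = 3 each). HHEX ran the other way, at 3.33 ± 0.203 FPKM in K1 control libraries and 5.13 ± 1.67 FPKM in TPC-1 control libraries (SD, n = 3 each; log2 -0.71). NKX2-1 had no count in any of the 12 libraries, and TG, TSHR and SLC5A5 stayed at or below 0.19 FPKM. Summed over the 5 leukocyte markers, the level was 4.35 to 6.12 FPKM in K1 and 0.20 to 0.66 FPKM in TPC-1. In K1, CD14 carried most of the sum, and CD3E and MS4A1 were at 0. In TPC-1 control libraries CD14 averaged 0.0867 FPKM and CD68 0.227 FPKM. The 5 fibroblast markers summed to 0.75 to 1.26 FPKM in K1 and 0.12 to 0.56 FPKM in TPC-1, and the 4 endothelial markers to 1.42 to 2.00 FPKM in K1 and 0.08 to 0.11 FPKM in TPC-1.

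Promoter sequence was taken from RefSeq (GRCh38.p14), whose table held 6 of the 10 genes. The stretches upstream of the annotated start are shown for the 3 genes below that differed most between the lines among those with sequence, and for SPRED2, which was not called different. The capitals mark the matches found: the CIC octamer TNAATGNA in its reverse form in DUSP6, and the ETS core CCGGAA in SPRY2 and, in its reverse form, in PHLDA1. CIC, called Capicua, is a repressor that ERK signalling removes from ETV and DUSP genes.
DUSP6, chr12:89352502-89352751, minus strand: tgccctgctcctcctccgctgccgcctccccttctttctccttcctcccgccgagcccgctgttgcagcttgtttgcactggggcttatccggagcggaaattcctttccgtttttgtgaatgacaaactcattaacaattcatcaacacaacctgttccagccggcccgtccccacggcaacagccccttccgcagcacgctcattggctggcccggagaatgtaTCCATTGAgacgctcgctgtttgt
SPRY2, chr13:80341127-80341376, minus strand: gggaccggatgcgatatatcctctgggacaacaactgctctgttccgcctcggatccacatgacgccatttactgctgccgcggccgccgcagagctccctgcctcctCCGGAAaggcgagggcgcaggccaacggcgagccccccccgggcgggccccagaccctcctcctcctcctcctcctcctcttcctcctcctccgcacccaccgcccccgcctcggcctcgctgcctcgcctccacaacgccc
PHLDA1, chr12:76031777-76032026, minus strand: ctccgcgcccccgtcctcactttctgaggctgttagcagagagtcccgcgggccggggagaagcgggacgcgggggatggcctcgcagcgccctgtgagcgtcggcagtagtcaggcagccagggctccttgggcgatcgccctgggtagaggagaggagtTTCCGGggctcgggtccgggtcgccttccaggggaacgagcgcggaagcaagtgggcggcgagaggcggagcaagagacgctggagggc
SPRED2, chr2:65432638-65432849, minus strand: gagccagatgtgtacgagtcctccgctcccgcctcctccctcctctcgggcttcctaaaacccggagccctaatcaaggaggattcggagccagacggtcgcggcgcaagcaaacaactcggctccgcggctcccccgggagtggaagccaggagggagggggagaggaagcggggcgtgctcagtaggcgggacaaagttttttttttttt
The DUSP6 match began 24 bases before the start, the SPRY2 match 142 bases and the PHLDA1 match 89 bases before it. Across 35116 windows of 250 bases upstream of RefSeq starts, searched on both strands, the CIC octamer was found in 9.77%, the ETS core in 14.5%, the longer ETS motif CCGGAAG in 8.52%, the AP-1 motif TGANTCA in 6.57% and the CRE motif TGACGTC in 3.12%. Every CCGGAAG also contains the ETS core. The ETS core and the CIC octamer were added after the 3 other motifs had given no match in these windows. A match is a run of letters and not a measured binding site. SPRED1, SPRED2 and SPRY4 held none of the 5 in any window searched. The SPRY4 start searched lies 2208 bases inside the deposited gene span, so its window is inside the gene and is not shown. SPRY2 also held none of the 5 upstream of its other annotated starts, which lie inside the gene and are not shown. SPRED1 and SPRY4 were called higher in K1. The part of these motifs in the line difference was not tested.

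The 10 genes spanned a wide range of levels, and the order of the levels was the same with TRIM35 siRNA as with control siRNA in each line. In K1 the order in mean FPKM was PHLDA1, SPRY2, DUSP6, DUSP5, SPRED1, ETV5, SPRED2, ETV4, SPRY4 and DUSP4. In TPC-1 it was PHLDA1, DUSP5, SPRY2, SPRED1, SPRED2, ETV5, DUSP6, ETV4, SPRY4 and DUSP4. DUSP6 therefore stood in the third place in K1 and in the seventh in TPC-1, while PHLDA1 was highest and SPRY4 and DUSP4 lowest in both. Neighbours whose libraries overlapped were DUSP6 with DUSP5, SPRED2 with ETV4 and SPRY4 with DUSP4 in K1, and SPRED1 with SPRED2 and SPRED2 with ETV5 in TPC-1. The mean level of PHLDA1 was 91.1 to 97.8 times that of DUSP4 across the 4 groups. Among all tested genes PHLDA1 ranked at the 99.5th percentile in both K1 groups, and DUSP4 at the 27.1st percentile in TPC-1 siRNA libraries and the 29.3rd in TPC-1 control libraries.

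**Figure D1:**
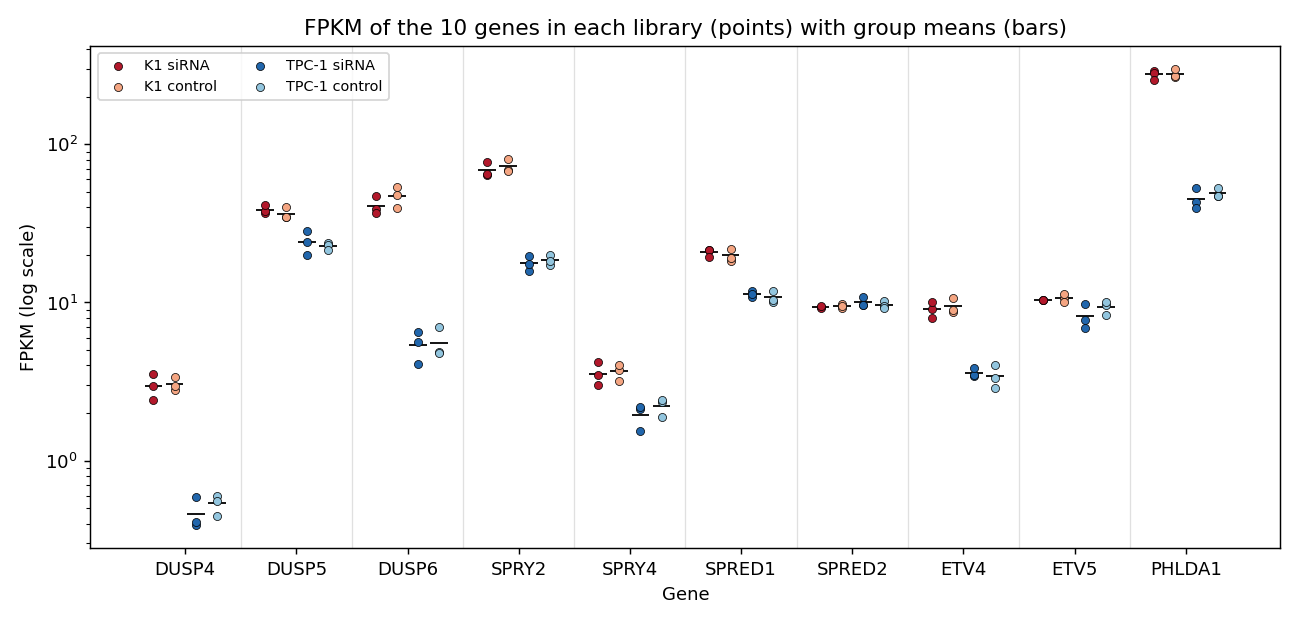
FPKM on a log scale for each of the 10 genes, with 1 point per library (n = 3 per group) and a bar at the group mean, in the order K1 siRNA, K1 control, TPC-1 siRNA, TPC-1 control. In 8 genes the K1 points lie above the TPC-1 points, while SPRED2 and ETV5 lie at similar heights in both lines, and siRNA and control points overlap within each line.

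The first comparison asks how the pathway's feedback genes differ between the 2 lines. K1 libraries held more mRNA of 8 of the 10 genes than TPC-1 libraries, by 1.51-fold for DUSP5 up to 7.98-fold for DUSP6 with control siRNA. No gene of the 10 was called lower. The background for this count is wide, since 35.8% of all 17447 tested genes were called higher in K1 and 32.1% lower. The median log2 fold change, K1 over TPC-1, was 1.08 over the 10 genes and 0.06 over all tested genes. In the siRNA libraries, which share no library with the control comparison, the same 8 genes were called higher, with 35.9% of all tested genes called higher, and the medians were 1.01 and 0.06. All K1 libraries lay above all TPC-1 libraries in 8 of the 10 genes with control siRNA, as in 40.5% of all tested genes, and 0 lay wholly below, as did 31.3%. With TRIM35 siRNA 9 lay wholly above, beside 37.1% of all tested genes, and 1 wholly below, beside 30.2%. Fewer cells of a type and less RNA per cell cannot be told apart in bulk RNA. The summed leukocyte, fibroblast and endothelial markers given above were also higher in K1. Of these markers 3, 3 and 2 were tested, and the control comparison called 3, 2 and 1 of them higher. KDR, at 1.44 FPKM in K1 control libraries, carried most of the endothelial sum. The 5 epithelial markers summed to 53.3 to 76.8 FPKM in K1 control libraries and 39.25 to 46.8 FPKM in TPC-1 control libraries. Of 4 epithelial markers tested 3 were called higher and 0 lower. CD3E and MS4A1 had counts in TPC-1 alone. The part of these markers in the line difference was not tested.

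DUSP6 (ENSG00000139318; hg38, chr12:89347235-89352501, minus strand), the cytoplasmic phosphatase that acts on ERK with high selectivity, had the widest difference between the lines. It measured 38.8, 36.6 and 47.3 FPKM in K1 siRNA libraries and 53.6, 47.9 and 39.6 FPKM in K1 control libraries. In TPC-1 it measured 6.51, 5.62 and 4.08 FPKM with TRIM35 siRNA and 6.96, 4.89 and 4.78 FPKM with control siRNA. Every K1 library was above every TPC-1 library by a wide margin, and within each line the siRNA and control values overlapped. The fold, K1 over TPC-1, was 7.98 in control libraries (95% interval 5.83 to 10.9; log2 3.00 ± 0.21, SE; edgeR adjusted p = 5.18e-09) and 7.16 in siRNA libraries (95% interval 5.24 to 9.78).

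DUSP4 (ENSG00000120875; hg38, chr8:29333064-29350684, minus strand), a nuclear phosphatase that acts on ERK and also on JNK and p38, was scarce in both lines but followed the same pattern. It measured 2.96, 3.54 and 2.41 FPKM in K1 siRNA libraries and 2.81, 2.97 and 3.37 FPKM in K1 control libraries. The TPC-1 values were 0.39, 0.41 and 0.59 FPKM with TRIM35 siRNA and 0.45, 0.60 and 0.56 FPKM with control siRNA, which rest on 53 to 97 counts a library. The lines did not overlap. DUSP4 was 5.29-fold higher in K1 in control libraries (95% interval 4.02 to 6.96; log2 2.40 ± 0.19, SE; edgeR adjusted p = 1.46e-08). On the log2(FPKM + 1) scale, which shrinks differences between low values, the same difference was 1.40.

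DUSP5 (ENSG00000138166; hg38, chr10:110497907-110511533, plus strand), a nuclear phosphatase specific for ERK, differed far less. Its levels were 36.6, 37.8 and 41.0 FPKM in K1 siRNA libraries and 39.9, 34.7 and 34.7 FPKM in K1 control libraries. TPC-1 libraries held 28.5, 19.9 and 24.0 FPKM with TRIM35 siRNA and 23.6, 23.03 and 21.4 FPKM with control siRNA. All K1 libraries were above all TPC-1 libraries, at 1.51-fold in control libraries (95% interval 1.23 to 1.85; log2 0.59 ± 0.14, SE; edgeR adjusted p = 0.0014). The make-up of the 3 phosphatases was unlike in the lines, with shares that did not overlap. DUSP6 made up 54.2% ± 2.79 of their summed FPKM in K1 control libraries and 19.1% ± 2.85 in TPC-1 control libraries, whereas DUSP5 made up 42.2% ± 2.17 in K1 and 79.0% ± 2.48 in TPC-1 (SD, n = 3 each). With TRIM35 siRNA the DUSP6 share was 49.5% ± 2.56 in K1 and 18.1% ± 3.71 in TPC-1.

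SPRY2 (ENSG00000136158; hg38, chr13:80335976-80341126, minus strand), a membrane-associated inhibitor that blocks signalling from receptor tyrosine kinases to RAS and RAF, was the second most abundant of the genes in K1. It measured 63.8, 65.3 and 76.7 FPKM in K1 siRNA libraries and 80.2, 69.2 and 68.3 FPKM in K1 control libraries. In TPC-1 the values were 19.8, 15.8 and 17.6 FPKM with TRIM35 siRNA and 20.1, 17.3 and 18.4 FPKM with control siRNA. The lines were far apart and the treatments overlapped. The fold was 3.66 in control libraries (95% interval 2.96 to 4.53; log2 1.87 ± 0.14, SE; edgeR adjusted p = 1.36e-08) and 3.65 in siRNA libraries.

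SPRY4 (ENSG00000187678; hg38, chr5:142310427-142326455, minus strand), a Sprouty protein with a similar inhibitory role, was low in both lines. K1 siRNA libraries held 4.18, 3.49 and 3.00 FPKM and K1 control libraries 3.19, 3.75 and 4.05 FPKM. TPC-1 siRNA libraries held 2.11, 1.54 and 2.17 FPKM and TPC-1 control libraries 1.88, 2.36 and 2.43 FPKM. The line ranges were close but did not overlap, and SPRY4 was 1.53-fold higher in K1 in control libraries (95% interval 1.22 to 1.93; log2 0.62 ± 0.16, SE; edgeR adjusted p = 0.00252). It made up 4.86% ± 0.921 of the summed SPRY2 and SPRY4 FPKM in K1 control libraries and 10.7% ± 1.9 in TPC-1 control libraries (SD, n = 3 each). SPRY4-AS1 is an antisense gene whose span overlaps SPRY4 but which shares 0 exonic bases with it by GENCODE 29. It held 1 to 71 counts a library, up to 12.9% as many as SPRY4. With these low counts it was also higher in K1 (log2 3.03, edgeR adjusted p = 9.12e-05).

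The SPRED genes, whose proteins bring the RAS GTPase activator neurofibromin to the membrane, went separate ways. SPRED1 (ENSG00000166068; hg38, chr15:38252836-38357249, plus strand) measured 21.4, 21.5 and 19.3 FPKM in K1 siRNA libraries and 18.4, 19.1 and 21.9 FPKM in K1 control libraries. In TPC-1 it measured 11.8, 10.8 and 11.3 FPKM with TRIM35 siRNA and 11.9, 10.01 and 10.4 FPKM with control siRNA. The lines did not overlap, and the fold in control libraries was 1.72 (95% interval 1.47 to 2.01; log2 0.78 ± 0.11, SE; edgeR adjusted p = 9.85e-06).

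SPRED2 (ENSG00000198369; hg38, chr2:65310851-65432637, minus strand), the close paralogue of SPRED1, was nearly level across the 12 libraries. It held 9.35, 9.28 and 9.46 FPKM in K1 siRNA libraries and 9.77, 9.26 and 9.53 FPKM in K1 control libraries. TPC-1 libraries held 10.8, 9.68 and 9.67 FPKM with TRIM35 siRNA and 10.2, 9.48 and 9.23 FPKM with control siRNA. The K1 and TPC-1 control libraries overlapped, and the log2 fold change of -0.11 ± 0.11 (SE) was not called (edgeR adjusted p = 0.37), with a 95% interval from 0.788 to 1.09 times TPC-1. Its sign turned under upper-quartile scaling (0.03) and with the filter at a mean of 1 FPKM (0.01). In the siRNA libraries all K1 values were below all TPC-1 values, yet the log2 fold change of -0.19 was not called either (adjusted p = 0.126). SPRED1 therefore made up 67.5% ± 2.18 of the pair's summed FPKM in K1 control libraries and 52.7% ± 1.28 in TPC-1 control libraries (SD, n = 3 each).

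The PEA3 factors also differed from each other. ETV4 (ENSG00000175832; hg38, chr17:43527844-43579620, minus strand) measured 7.93, 9.14 and 10.1 FPKM in K1 siRNA libraries and 10.7, 8.67 and 8.92 FPKM in K1 control libraries. In TPC-1 it measured 3.45, 3.49 and 3.84 FPKM with TRIM35 siRNA and 3.31, 4.05 and 2.87 FPKM with control siRNA. K1 was above TPC-1 in every library, and the fold in control libraries was 2.59 (95% interval 2.02 to 3.33; log2 1.38 ± 0.17, SE; edgeR adjusted p = 3.17e-06). DHX8 on the opposite strand shares 68 of the 3607 exonic bases of ETV4 by GENCODE 29 and held 683 to 1114 counts a library. DHX8 itself differed by -0.13 on the log2 scale between the control libraries (edgeR adjusted p = 0.459).

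ETV5 (ENSG00000244405; hg38, chr3:186046314-186110318, minus strand), the other PEA3 factor, had similar levels in both lines. It measured 10.3, 10.3 and 10.4 FPKM in K1 siRNA libraries and 10.7, 10 and 11.2 FPKM in K1 control libraries. TPC-1 held 6.91, 7.78 and 9.78 FPKM with TRIM35 siRNA and 8.39, 9.63 and 10.01 FPKM with control siRNA. The K1 siRNA libraries were almost identical to each other, whereas TPC-1 libraries spread more widely, and the highest TPC-1 control library lay just above the lowest K1 control library. In control libraries the log2 fold change was 0.09 ± 0.14 (SE; edgeR adjusted p = 0.574), with a 95% interval from 0.868 to 1.31 times TPC-1. In siRNA libraries, where the lines did not overlap, it was 0.25 ± 0.14 (SE; adjusted p = 0.122). Without the third TPC-1 siRNA library this became 0.38 and was called (adjusted p = 0.0204), as it was with all 12 libraries under upper-quartile scaling (0.39), the filter at a mean of 1 FPKM (0.38) and both limma fits (0.36 and 0.32). DGKG on the same strand shares 164 exonic bases with ETV5 by GENCODE 29, held 26 to 102 counts a library and was lower in K1 (log2 -1.19, edgeR adjusted p = 0.00736). ETV4 made up 46.9% ± 2.93 of the pair's summed FPKM in K1 control libraries and 26.7% ± 3.90 in TPC-1 control libraries (SD, n = 3 each).

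PHLDA1 (ENSG00000139289; hg38, chr12:76025447-76031776, minus strand), a pleckstrin homology-like protein whose transcript falls with MEK inhibition, was the most abundant of the 10. K1 siRNA libraries held 291, 284 and 255 FPKM and K1 control libraries 267, 269 and 300.1 FPKM. TPC-1 siRNA libraries held 43.3, 39.6 and 53.0 FPKM and TPC-1 control libraries 47.2, 46.8 and 52.6 FPKM. No K1 library came near any TPC-1 library. The fold was 5.32 in control libraries (95% interval 4.33 to 6.54; log2 2.41 ± 0.14, SE; edgeR adjusted p = 4.2e-10) and 5.71 in siRNA libraries.

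**Figure D2:**
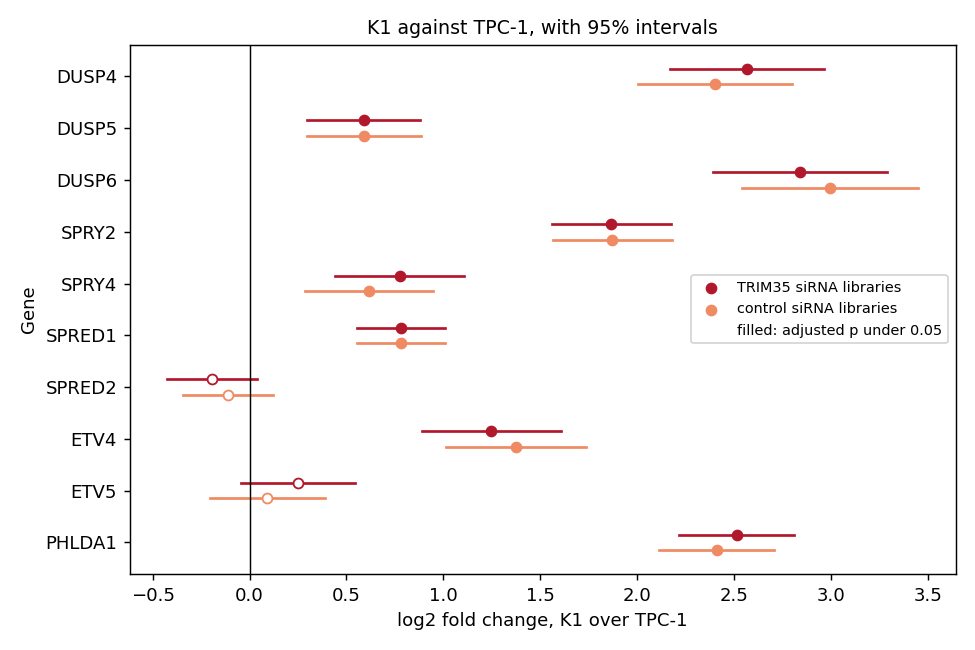
log2 fold change, K1 over TPC-1, with 95% intervals for each gene in the TRIM35 siRNA libraries and in the control siRNA libraries (3 libraries a group), filled where the edgeR adjusted p was under 0.05. DUSP6, PHLDA1, DUSP4, SPRY2 and ETV4 lie above 1, SPRED1, SPRY4 and DUSP5 between 0 and 1, and the open points of SPRED2 and ETV5 have intervals that cross 0.

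The second comparison asks whether TRIM35 siRNA moved these genes. Within each line the siRNA and control libraries overlapped for all 10 genes, and no gene was called in K1 (0 of 10, with 0% of all tested genes called) or in TPC-1 (0 of 10, with 0% of all tested genes called). Over all tested genes edgeR called 0 in either line. At an unadjusted p under 0.05 it gave 136 genes in K1 and 337 in TPC-1, none of them among the 10, while DESeq2 called 0 in K1 and 2 in TPC-1 and limma 0 in both. Separate, non-overlapping FPKM ranges between siRNA and control were seen for 4.74% of all tested genes in K1 and 4.6% in TPC-1, and for 0 of the 10 in either line. Whether replicates were separate cultures is not stated, and p-values reflect the scatter among the sequenced libraries, part or all of which may be technical.

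The fitted differences were within the error in both lines. In K1 the log2 difference, siRNA over control, ran from -0.19 for DUSP6 to 0.08 for DUSP5, with a median of -0.03, and 2 genes lay above 0 and 8 below. In TPC-1 it ran from -0.20 for DUSP4 to 0.08 for DUSP5, with a median of -0.05, and 4 genes lay above 0 and 6 below. Leaving out single libraries turned the sign of 8 of the 10 genes in K1 and of 4 in TPC-1, so that no direction is given for them. The 95% intervals of the 10 genes reached from 65.6% to 130% of control in K1 and from 65.0% to 136% of control in TPC-1. SPRED1 and SPRED2 had the narrowest of them, for SPRED1 from 89.8% to 123% in K1 and from 89.7% to 123% in TPC-1.

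The difference between the lines in the siRNA effect, K1 minus TPC-1, was called for 0 of the 10 genes, with 0% of all tested genes called. It ran from -0.16 for DUSP6 to 0.16 for DUSP4 on the log2 scale, with an edgeR adjusted p of 1.00 for each. For this comparison edgeR gave 301 of all tested genes at an unadjusted p under 0.05, DESeq2 called 2 and limma 0. The siRNA comparisons share their control libraries with the K1 against TPC-1 comparison in control libraries, and no relation between them is given.

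**Figure D3:**
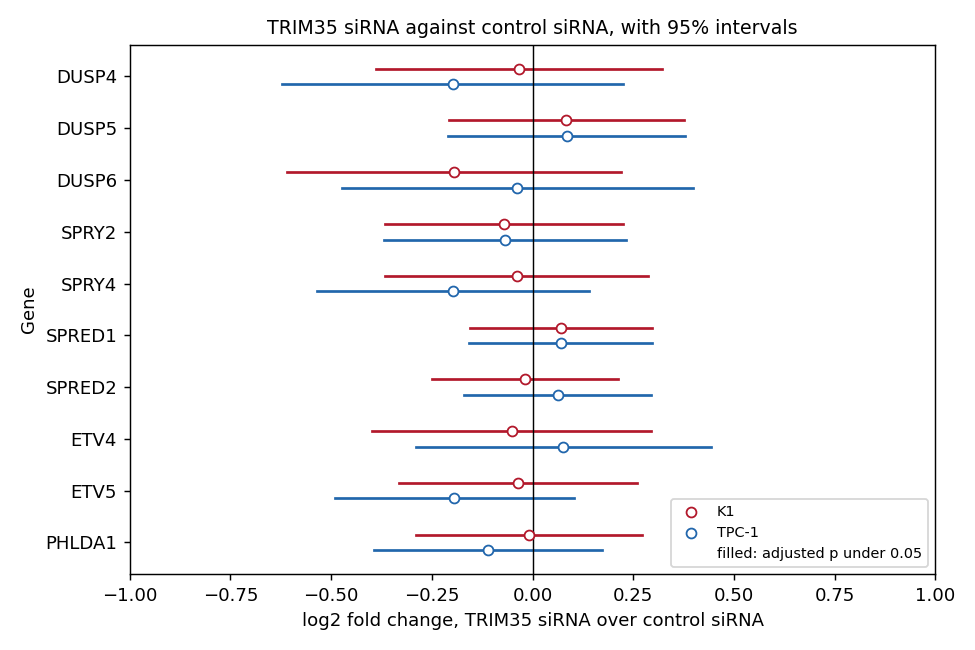
log2 fold change, TRIM35 siRNA over control siRNA, with 95% intervals for each gene in K1 and in TPC-1 (3 libraries a group). All points are open (not called) and lie between -0.20 and 0.08, and every interval crosses 0.

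Although treatment did not separate the libraries, the genes varied within each line in a pattern that ran across both treatments. DUSP6 in K1 was highest in the first control library and lowest in the second siRNA library, and in TPC-1 highest in the first control library and lowest in the third siRNA library. These swings went with a property of the whole library, its summed FPKM over all genes, which is larger where short transcripts take more of the reads. The summed FPKM ran from 228728 to 252604 in K1 and from 232024 to 270674 in TPC-1. Pearson r was taken over the 6 libraries of a line, which share the line. Between the log2 CPM of DUSP6 and the summed FPKM it was 0.96 in K1 and 0.89 in TPC-1, and that of SPRED2 was 0.87 and 0.90. PHLDA1 ran the opposite way in TPC-1, at -0.92. In K1 its r was -0.56, where its log2 CPM varied only from -0.0497 to 0.0579 about the line mean. DUSP4 had a negative r in both lines, at -0.57 in K1 and -0.89 in TPC-1, as did SPRY4 at -0.74 and -0.63. The r of ETV5 was 0.56 in K1 and -0.92 in TPC-1, that of SPRED1 -0.62 and 0.49, that of ETV4 0.86 and 0.02, that of SPRY2 0.92 and 0.24, and that of DUSP5 0.77 and 0.39. The part of this library property in the members' spread was not tested. The share of all genes with such an r was not counted.

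**Figure D4:**
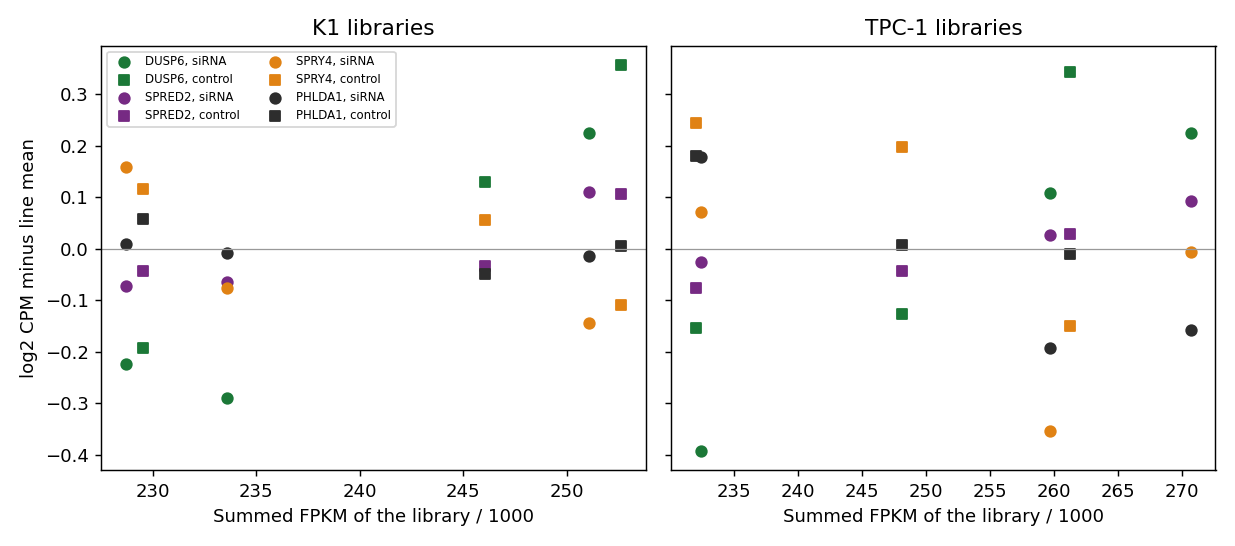
Deviation of log2 CPM from the mean of the line against the library's summed FPKM divided by 1000, for DUSP6, SPRED2, SPRY4 and PHLDA1 in K1 (left) and TPC-1 (right), with circles for siRNA and squares for control libraries. DUSP6 lies higher in libraries with a larger summed FPKM in both lines (r = 0.96 in K1 and 0.89 in TPC-1). PHLDA1 lies lower in such libraries in TPC-1 (r = -0.92) and stays close to its line mean in K1 (r = -0.56).

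The genes whose within-line pattern was most like that of DUSP6 were CNRIP1 (r = 0.973 in K1 and 0.971 in TPC-1), MICOS13 (0.967 and 0.986) and MRPL57 (0.965 and 0.99), out of 5097 genes with a mean of at least 5 FPKM in each line. Likeness was the lower of the 2 within-line Pearson r of log2 CPM, each over 6 libraries that share depth and library make-up. For SPRY4 the 3 genes were CPSF1 (0.927 and 0.863), RNU6-26P (0.843 and 0.931) and RBM6 (0.894 and 0.837), out of 5098. None of the 6 is another of the feedback genes.

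The other genes of the pathway were read in the same K1 against TPC-1 control comparison, in which 35.8% of all tested genes were called higher and 32.1% lower. Of 7 other MAPK phosphatases 5 passed the filter on low counts, and 3 were called higher and 0 lower, with a median log2 fold change of 0.57. DUSP1, an immediate-early phosphatase of several MAP kinases, averaged 333 ± 50.7 FPKM in K1 and 94.1 ± 14.7 FPKM in TPC-1 (SD, n = 3 each; log2 1.73). DUSP16, which acts mainly on JNK, averaged 9.08 ± 0.368 FPKM in K1 and 3.02 ± 0.445 FPKM in TPC-1 (SD, n = 3 each; log2 1.49). DUSP10, which acts on p38 and JNK, had a log2 fold change of 0.57 and DUSP7 of 0.28 (edgeR adjusted p = 0.0671), DUSP7 being called under RLE scaling (0.31) and 5 other alternatives.

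Of the 4 other Sprouty, SPRED and PEA3 genes 1 was called higher and 1 lower in control libraries, and 2 higher and 1 lower in siRNA libraries. SPRY1, another Sprouty inhibitor, averaged 0.473 ± 0.155 FPKM in K1 and 1.6 ± 0.168 FPKM in TPC-1 (SD, n = 3 each; log2 -1.84, edgeR adjusted p = 2.97e-05), the opposite direction to SPRY2 and SPRY4. SPRY3 was called higher (log2 0.79), a call that was lost when the first or second TPC-1 control library or the third K1 control library was left out. ETV1 and SPRED3 differed by -0.03 and 0.04 on the log2 scale in control libraries and were not called. In siRNA libraries SPRED3 was called higher, at 1.30 ± 0.358 FPKM in K1 and 0.663 ± 0.176 FPKM in TPC-1 (SD, n = 3 each; log2 0.86, edgeR adjusted p = 0.00682). On the log2(FPKM + 1) scale the SPRY1 difference in control libraries was -0.82.

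The genes of the cascade itself, from EGFR to ERK, had a median log2 fold change of -0.28, and of 17 tested 3 were called higher and 6 lower. In siRNA libraries the median was -0.03, with 4 called higher and 5 lower, beside 35.9% and 32.4% of all tested genes. In control libraries NRAS, a RAS GTPase, averaged 27.4 ± 0.167 FPKM in K1 and 75.8 ± 8.30 FPKM in TPC-1 (SD, n = 3 each; log2 -1.56). EGFR, the receptor for epidermal growth factor, was higher in K1 (19.97 ± 2.64 FPKM against 10.1 ± 1.29 FPKM in TPC-1, SD, n = 3 each; log2 0.88), as was MAP2K2, which encodes MEK2 (log2 0.86). SHOC2, a scaffold for RAF activation, was lower (log2 -0.64). Of 7 RAS GTPase activators 3 were called lower, with a median of -0.23. DAB2IP had a log2 fold change of -1.74 (-0.87 on the log2(FPKM + 1) scale) and RASA1 of -0.62. RASAL1 had 0 counts in the K1 control libraries and 32 over the TPC-1 control libraries. Taking 3 counts over the K1 group as the floor, this gives a level 12.9-fold lower in K1. The floor covers counting error in K1 only, and the 32 TPC-1 counts were taken without error.

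Other transcripts that depend on ERK in many cells were split between the lines: of 12 tested 7 were called higher and 3 lower, with a median of 0.44. LIF, a cytokine, averaged 66.5 ± 4.92 FPKM in K1 and 5.84 ± 0.442 FPKM in TPC-1 (SD, n = 3 each; log2 3.41). HMGA2, a chromatin protein, was also higher (log2 2.20). MYC, a growth-promoting transcription factor, was lower (9.03 ± 1.23 FPKM in K1 against 41.5 ± 2.77 FPKM in TPC-1, SD, n = 3 each; log2 -2.29), as was EPHA2, an ephrin receptor (log2 -1.20). Of 8 other ETS factors 1 was called higher, ETS2 (log2 0.61), and 3 lower, ELF1 (log2 -0.71), GABPA (-0.48) and ELK4 (-0.35), with a median of -0.24. The call of ELK4 was lost when any 1 of 3 control libraries was left out, namely the third of TPC-1 and the first and second of K1, and under 5 other alternatives.

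Among 3 proteins that act on the ETV factors, COP1, a ubiquitin ligase that degrades them, was lower in K1 (14.4 ± 0.346 FPKM against 20.1 ± 1.10 FPKM in TPC-1, SD, n = 3 each; log2 -0.58, edgeR adjusted p = 0.0023). DET1, a partner of COP1, had a log2 fold change of 1.03 (adjusted p = 0.0531) and the repressor CIC of -0.35 (adjusted p = 0.104). DET1 was called without the second K1 control library (log2 1.32) or the third K1 siRNA library (1.03) and under 5 alternatives that kept all libraries of the groups compared, while without the third K1 control library it was 0.59 and not called. CIC was called without the second TPC-1 siRNA library (-0.35) and with only the groups compared (-0.32). No gene of these 7 lists was called in either siRNA comparison, with 0% of all tested genes called.

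**Figure D5:**
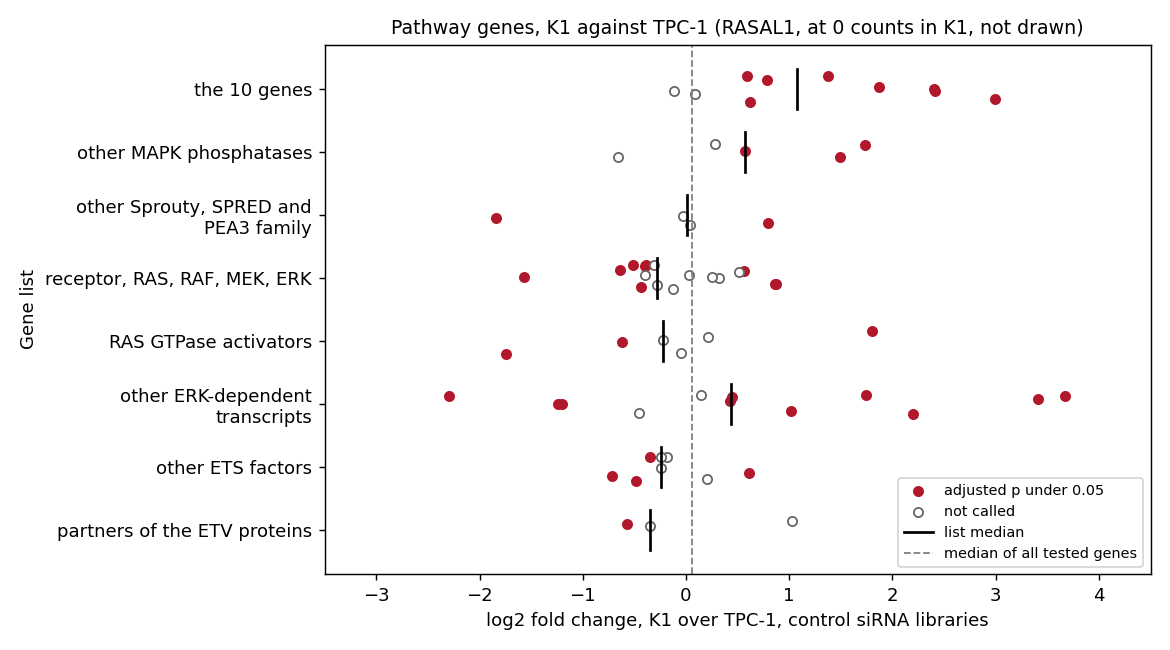
log2 fold change, K1 over TPC-1, in control siRNA libraries for the 10 genes and 7 other pathway lists, with 1 point per tested gene (filled in red where the edgeR adjusted p was under 0.05), a black bar at the list median and a dashed line at the median of all tested genes (0.06). The 10 genes have a median of 1.08, the other MAPK phosphatases of 0.57 and the cascade of -0.28, and RASAL1 enters its list's median but is not drawn.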

How the data were processed

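RNA was extracted with TRIzol and random-primed, per the labels' protocols. The submitters' processing notes name cutadapt 1.9.1 and hg38. Which aligner, counter, annotation and strand setting they used is not given in the sources used here. In 1 table the authors deposited raw counts per gene and FPKM values. Each deposited FPKM value equals the count divided by exonic gene size and library total, within 0.005.

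Counts were tested with edgeR 4.0.16 (R 4.3.3): filterByExpr, TMM scaling, and a quasi-likelihood fit with 1 mean per group over all 12 libraries (8 residual degrees of freedom). The filter removed 44359 genes holding at most 0.2% of a library's counts. Calls were made at an adjusted p (Benjamini-Hochberg, over 17447 genes) under 0.05. SE is the log2 fold change, without its sign, over the root of F, and intervals are at 95%. Log2 CPM for correlations used a prior count of 0.5. The procedure was run on simulated data with less spread between libraries than these data have. That run does not show how small a difference could be called here. Alternatives used limma 3.58.1, DESeq2 1.42.0, other scalings and filters, a replicate block and leaving out each library.

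The genes and lists were chosen with earlier results of these data known. The naming rule took all 10 genes, TRIM35, up to 4 tested genes of each other list by adjusted p in K1 against TPC-1 control libraries, and the 3 genes most like DUSP6 and SPRY4. Some genes that the lists or the rule take are not reported here. The title of 1 TPC-1 control library names another line, while its other labels give TPC-1, and it was kept there. Replicate pairs differed by more than sampling noise (chi-square per degree of freedom 4.29 to 62.8). Same-numbered TPC-1 siRNA and control libraries deviated together (r = 0.809, 0.361 and 0.882 over genes), a pairing read from the data. Overlaps between exons were taken from GENCODE release 29.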

Additional observations from a re-analysis of the deposited data

How the results depend on the processing

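In the replicate block fit, as in every other alternative, the number of the 10 genes called was 0 for TRIM35 siRNA in K1 and TPC-1 and for their difference, and 8 for K1 against TPC-1 control libraries; the block changed no call of the 10. In K1 same-numbered libraries did not deviate together (r = -0.812, 0.0216 and -0.838). There the first siRNA library went with the third control library (r = 0.813), and the third siRNA library with the first control library (r = 0.839). A block by replicate number cannot remove this shared variation in K1, so nothing is drawn from its unchanged siRNA calls there. For the siRNA libraries of the lines the count was 8 to 9, the ninth being ETV5 (log2 0.386 with upper-quartile scaling, 0.378 with a mean of at least 1 FPKM, 0.355 and 0.322 with limma, and 0.107 to 0.382 leaving out single libraries). Upper-quartile scaling moved the median of all genes from 0.06 to 0.21 in control libraries. Over all genes the count without a filter was 2 in K1, 2 in TPC-1 and 4 for their difference.

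Signs turned for these results, none of which was called. PHLDA1 in K1 gave 0.0023 under RLE factors and 0.0023 under DESeq2. For the difference between lines in the siRNA effect, DUSP5 gave 0.0064 (RLE), 0.0063 (DESeq2), 0.0046 and 0.0050 (limma) and 0.0072 (block), SPRY2 0.0027 (RLE) and 0.0027 (DESeq2), and SPRED1 -0.010 (upper quartile), -0.022 (no filter), -0.0036 and -0.0010 (limma) and -0.00016 (block). K1 against TPC-1 control libraries gave SPRED2 at 0.029 (upper quartile) and 0.014 (mean FPKM of at least 1), and ETV1 at 0.0094 (RLE), 0.122 (upper quartile), 0.0094 (DESeq2), 0.103 (mean FPKM), 0.0791 and 0.0665 (limma) and 0.0063 (only the groups compared). Leaving out single libraries gave these ranges. In K1, DUSP4 -0.157 to 0.0669, DUSP5 -0.00767 to 0.19, SPRY2 -0.205 to 0.0425, SPRY4 -0.136 to 0.0368, SPRED2 -0.0652 to 0.0351, ETV4 -0.182 to 0.0882, ETV5 -0.0834 to 0.00307 and PHLDA1 -0.0365 to 0.0175. In TPC-1, DUSP5 -0.0098 to 0.199, DUSP6 -0.151 to 0.181, SPRY2 -0.114 to 0.013 and ETV4 -0.0123 to 0.223. For the difference, DUSP5 -0.117 to 0.104, SPRY2 -0.152 to 0.11, SPRED1 -0.0983 to 0.0493 and ETV4 -0.275 to 0.0114. Between the lines, ETV1 -0.101 to 0.089 and SPRED3 -0.134 to 0.324. The cause was not tested. The counts of the other lists and their named genes were added to the alternatives after seeing the data. Counted in either direction, 5 other MAPK phosphatases were called without a filter, and 2 or 3 ETV partners under 8 alternatives. The filter had removed DUSP2 and DUSP9, which had 0 counts in the K1 libraries. In TPC-1 control libraries DUSP2 had 2 to 4 counts and DUSP9 had 3 to 8.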
